A study of Mus musculus with 3 samples.

Results

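The miR-132 and miR-212 cluster comprises both arms of 2 neighbouring mouse microRNA hairpins. They are listed as mmu-miR-132-3p, mmu-miR-132-5p, mmu-miR-212-3p and mmu-miR-212-5p, without the species prefix below. These 4 arms were taken by name from the deposited tables, and all 4 were found among the 899 mature miRNAs listed there. The tables profile miRNAs during osteoclast formation in marrow cultures of C57BL/6 mice, whose age is given as 11 weeks after birth. Mature osteoclasts (mOC) were macrophages kept for 72 h or more with the growth factor M-CSF at 30 ng/mL and the osteoclast-inducing cytokine RANKL at 100 ng/mL. Preosteoclasts (pOC) received the same 2 factors for 24 h. Bone marrow macrophages (BMM), from which both were made, were grown from non-adherent marrow cells with M-CSF at 50 ng/mL for 72 h. All cultures, the macrophages included, are described as exposed to 500 µM alendronate, a bisphosphonate drug, for 12 h so that they released apoptotic bodies, while the series describes its material as exosomes, and the labels do not say which vesicles were sequenced. Each stage has 1 sample, and the labels do not give the number of mice behind it.

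Besides mOC and pOC, the tables hold a library under the heading R, which no label explains. BMM is the only sample without columns under its own name, but no label links it to R. No sample was therefore assigned to R, and the analysis leaves out its counts. The 4 arms are described by their counts in mOC and pOC and, against R, by the authors' own fold changes.

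A miRNA hairpin is cut by the nucleases Drosha and Dicer into a short duplex, whose 5p arm comes from the side nearer the 5′ end of the hairpin and whose 3p arm from the other. One arm is usually kept by an Argonaute protein, and it recognises messenger RNAs mainly through its seed, bases 2 to 8. miR-132 and miR-212 are known as an activity-dependent pair in neurons, transcribed together from a promoter that responds to the transcription factor CREB. miR-132 is also induced in monocytes and macrophages by bacterial lipopolysaccharide.

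The mature sequences are shown because the seeds decide which arms can be expected to bind the same messenger RNAs. They are RefSeq records of GRCm38.p6 and run 5′ to 3′, with the seed in capitals.
miR-132-3p: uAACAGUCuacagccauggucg
miR-212-3p: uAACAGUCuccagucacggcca
miR-132-5p: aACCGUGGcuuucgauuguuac
miR-212-5p: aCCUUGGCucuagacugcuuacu

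The 3p arms of both hairpins carry the same seed, AACAGUC, and were identical over their first 9 bases. Over 22 bases they had the same base at 17 positions and differed at 5, counted from the 5′ end of the mature strand with the base of miR-132-3p first: A10C, C14U, U17C, U20C and G22A. All 5 differences lie outside the seed, so a full-length read can still tell the 3p arms apart. Of the other listed miRNAs with a RefSeq sequence, none shared this seed or its first 6 bases. The 5p arms differ from each other, with the seeds ACCGUGG in miR-132-5p and CCUUGGC in miR-212-5p, and their longest common run was 5 bases. Neither 5p seed was shared by another listed miRNA. RefSeq held a mature sequence for 793 of the 899 listed names, so miRNAs outside these 793 were not compared.

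The hairpins are shown with both mature arms in capitals, since the arm shares given further on are shares of these segments.
Mir212: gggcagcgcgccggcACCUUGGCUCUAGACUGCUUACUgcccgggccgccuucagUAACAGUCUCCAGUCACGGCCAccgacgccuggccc
Mir132: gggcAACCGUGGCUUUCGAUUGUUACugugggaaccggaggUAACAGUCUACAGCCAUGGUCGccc

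Both hairpins lie on the plus strand of chromosome 11 in GRCm38.p6, Mir212 at chr11:75173388-75173478 and Mir132 at chr11:75173682-75173747, with 203 bases between them. In the GENCODE M21 annotation of GRCm38 both fall in intron 1 of the noncoding transcript 1700016P03Rik, which has 3 exons and runs on the same strand. The nearest protein-coding gene upstream is Hic1, a transcriptional repressor gene on the opposite strand, 3868 bases from Mir212, and the nearest downstream is Ovca2, 2194 bases from Mir132 and also on the opposite strand. The arms are separated by 17 bases in Mir212 and by 15 in Mir132. RNAfold predicted a minimum free energy of -41.5 kcal/mol for Mir212 and -37.2 kcal/mol for Mir132, with all of the first 4 bases of each 3p arm paired, against 2 of the first 4 in miR-212-5p and 3 of the first 4 in miR-132-5p.

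**Figure D1:**
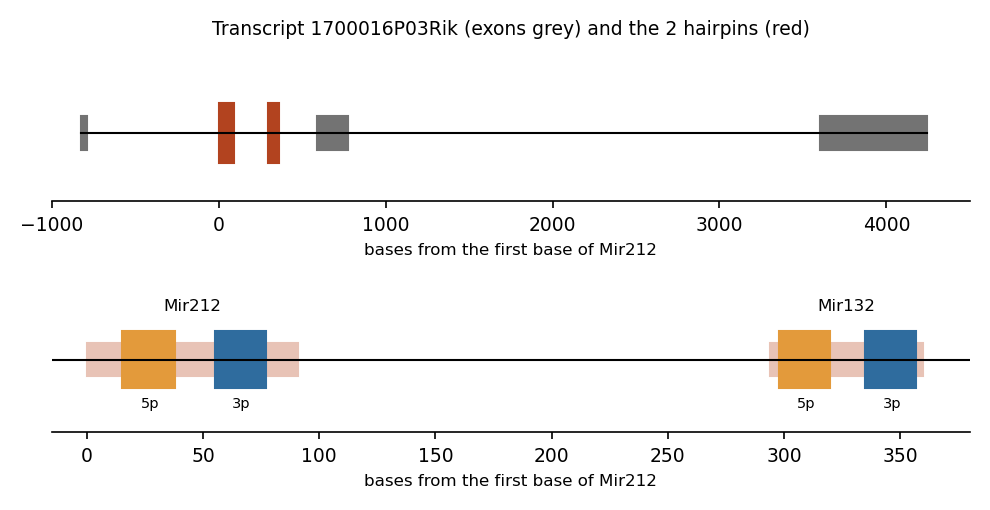
Position of the 2 hairpins within the transcript 1700016P03Rik (upper, exons in grey, hairpins in red) and of the 5p (orange) and 3p (blue) arms within each hairpin (lower), in bases from the first base of Mir212. Both hairpins sit between the first and the second exon, 203 bases apart.

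The mOC library held 7017707 assigned counts and the pOC library 5430426. A count of 0 would allow up to 0.427 CPM (counts scaled to a column total of 1000000) in mOC and 0.552 CPM in pOC. Intervals below are exact 95% intervals that cover counting error only, since neither library has a replicate, and without molecular identifiers several reads can stem from 1 molecule. Myeloid and blood-cell miRNAs were present in both libraries: miR-142a-5p stood at 7261 CPM in mOC and 5112 CPM in pOC, and miR-223-3p at 250 CPM in mOC and 70.3 CPM in pOC.

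miR-132-3p had the most counts of the cluster in both libraries. It had 1185 counts in mOC, against 1150 in pOC, which is 168.9 CPM (159.4 to 178.8) in mOC and 211.8 CPM (199.7 to 224.4) in pOC. This placed it at rank 139 of 899 in mOC and rank 125 in pOC, well below the leading miRNAs but within the upper 15.5% of the list in mOC and the upper 13.9% in pOC. miR-212-3p, the seed partner, had 184 counts in mOC, against 130 in pOC, or 26.2 CPM (22.6 to 30.3) in mOC and 23.9 CPM (20.0 to 28.4) in pOC. Its ranks were 234 in mOC and 238 in pOC.

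The 5p arms had few counts. miR-132-5p had 43 counts in mOC, against 33 in pOC, at 6.13 CPM (4.43 to 8.25) in mOC and 6.08 CPM (4.18 to 8.53) in pOC. miR-212-5p had 44 counts in mOC, against 24 in pOC, at 6.27 CPM (4.56 to 8.42) in mOC and 4.42 CPM (2.83 to 6.58) in pOC. All 4 arms lay above the level that a count of 0 allows.

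The order of levels was miR-132-3p, miR-212-3p and then the 5p arms, and the intervals separated the first, the second and the 5p pair in each library. The 5p arms could not be ordered. Their intervals overlapped in both libraries, and in mOC they had 44 (miR-212-5p) and 43 (miR-132-5p) counts. Together the 4 arms took 1456 counts in mOC and 1337 in pOC, or 0.0207% of all counts in mOC and 0.0246% in pOC. miR-132-3p alone made up 81.4% of the cluster's counts in mOC and 86.0% in pOC.

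**Figure D2:**
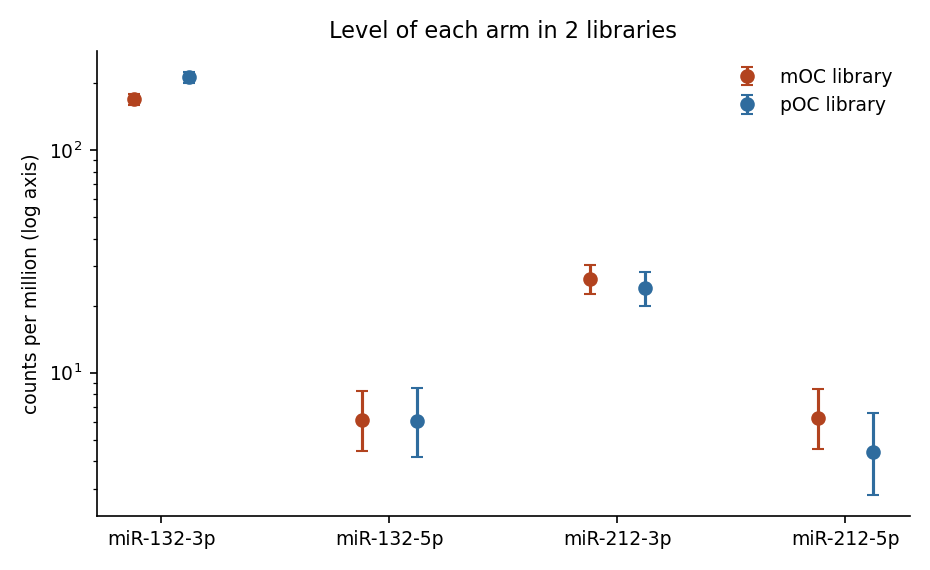
Level of each arm in CPM of the column total (log axis) in the mOC and pOC libraries, 1 library each; bars are exact 95% Poisson intervals. miR-132-3p stands highest at 168.9 CPM in mOC and 211.8 CPM in pOC, miR-212-3p follows, and the intervals of the 5p arms overlap.

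The comparison with R asked which miRNAs differ from the library that the tables use as denominator. All 4 arms were higher over R at both stages in the authors' deposited tables. miR-132-3p was 5.22-fold higher in mOC over R and 6.74-fold higher in pOC over R in the authors' deposited tables. Its seed partner miR-212-3p was 2.77-fold higher in mOC over R and 2.60-fold higher in pOC over R in the authors' deposited tables.

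Of the minor arms, miR-132-5p was 3.85-fold higher in mOC over R and 3.93-fold higher in pOC over R in the authors' deposited tables. For miR-212-5p the authors' deposited tables gave 4.37-fold in mOC over R and 3.17-fold in pOC over R. The 5p folds rest on 24 to 44 counts in the stage libraries. No counting interval is given for any fold over R, because the counts of R were not used.

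The authors list a miRNA as higher where its log2 fold change is at least 1 and its unadjusted p-value is under 0.05, a p-value that rests on 1 library a side. By that rule all 4 arms are on the authors' deposited list of miRNAs higher in mOC over R, which holds 5.78% of the 899 miRNAs, and all 4 are on the authors' deposited list of miRNAs higher in pOC over R, which holds 6.56%. Both lists together shared 21 miRNAs, 2.34% of the 899, and the 4 arms are 4 of these 21. Since R is the denominator of both tables, the stages are not independent here. The 4 arms are not 4 independent miRNAs either, since they come from 2 neighbouring hairpins. In the authors' deposited tables the median log2 fold change of the 4 arms was 2.04 in mOC over R and 1.82 in pOC over R, while the median of the 560 miRNAs with at least 10 counts over mOC and pOC was 0.01 in mOC over R and 0.10 in pOC over R.

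Among miRNAs with at least 50 counts in the stage library, miR-132-3p had the 4th largest log2 fold change of 315 in mOC over R and the 2nd largest of 311 in pOC over R in the authors' deposited tables. miR-212-3p stood at place 15 of 315 in mOC over R and 16 of 311 in pOC over R in the authors' deposited tables. The 5p arms do not reach that minimum. It is set on the stage library, the numerator of the fold change. Without it, miR-132-3p stood at place 72 of 899 in mOC over R and 63 in pOC over R in the authors' deposited tables. There miR-212-3p stood at place 104 in mOC over R and 114 in pOC over R.

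**Figure D3:**
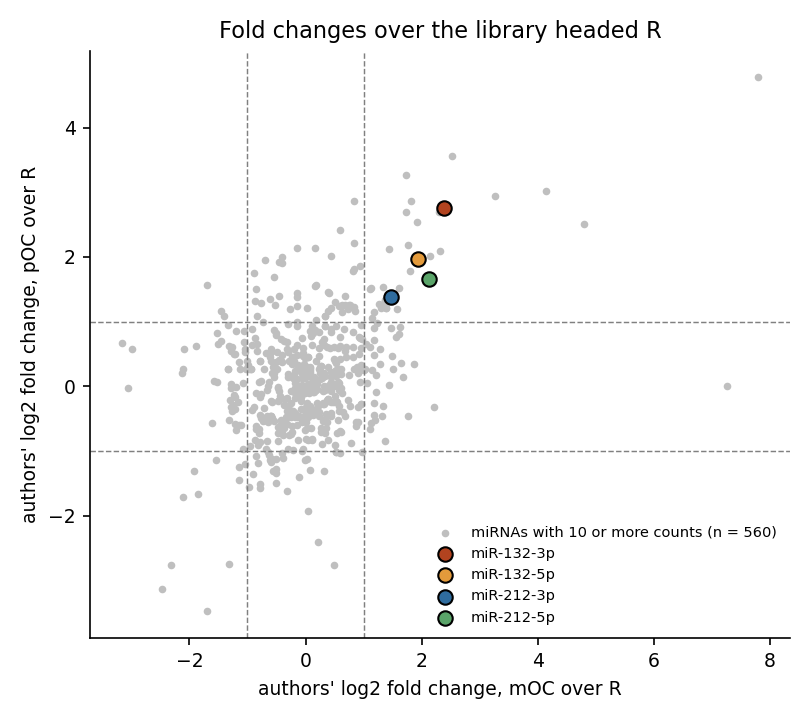
The authors' deposited log2 fold changes of mOC over R (horizontal) and pOC over R (vertical) for the 560 miRNAs with at least 10 counts over mOC and pOC (grey) and the 4 arms (coloured); dashed lines mark a 2-fold difference. All 4 arms lie beyond 2-fold on both axes, and both axes share the denominator R.

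The arms did not share 1 size of difference from R. In the authors' deposited tables, the log2 fold change of miR-132-3p exceeded that of miR-212-3p by 0.92 in mOC over R (1.89 times) and by 1.37 in pOC over R (2.59 times). Arms set side by side within 1 table share its scaling, so the size of these gaps does not depend on how the libraries were scaled. The 5p arms were closer to each other, with miR-132-5p minus miR-212-5p at -0.18 in mOC over R and 0.31 in pOC over R in the authors' deposited tables. Within the miR-132 hairpin the 3p arm exceeded the 5p arm by 0.44 in mOC over R and 0.78 in pOC over R, whereas in the miR-212 hairpin the 3p arm was below the 5p arm, at -0.66 in mOC over R and -0.29 in pOC over R, all on the log2 scale of the authors' deposited tables. Whether these gaps exceed counting error was not tested, as it depends on the counts of R.

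Few hairpins had both arms on both lists of higher miRNAs, as few single miRNAs did. Of 206 hairpins with 2 listed arms that RefSeq assigns to that hairpin alone, 3 had both arms on the authors' deposited lists of higher miRNAs for mOC over R and pOC over R: Mir132, Mir212 and Mir455. Of all 899 single miRNAs, 2.34% are on both lists. Hairpins on 1 strand within 10000 bases of each other were also grouped into 33 clusters with at least 3 listed arms. Arms that RefSeq assigns to more than 1 hairpin were left out of them. In the authors' deposited tables, 1 of these 33 clusters, Mir212 with Mir132, had every counted arm at least 2-fold higher over R at both stages. Mir182 with Mir96 and Mir183 had 5 of 6 arms that high in mOC over R and 3 of 6 in pOC over R. A 2-fold higher value was held by 17.1% of all 899 miRNAs in mOC over R and by 19.4% in pOC over R. Both groupings were made after the values of the 4 arms had been seen, and clusters with more arms meet such a condition less easily.

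The comparison of mOC with pOC asked whether the cluster differs between the late and the early stage. None of the 4 arms differed 2-fold. miR-132-3p was lower in mOC, at 168.9 CPM against 211.8 CPM in pOC, a log2 ratio of -0.33, or 1.25-fold lower (1.16 to 1.36). miR-212-3p was at 26.2 CPM in mOC and 23.9 CPM in pOC, a ratio of 1.10 (0.870 to 1.38). The ratio of mOC to pOC was 1.01 (0.626 to 1.64) for miR-132-5p and 1.42 (0.844 to 2.44) for miR-212-5p. Only the interval of miR-132-3p excluded 1. The wide intervals of the 5p arms reflect their 24 to 44 counts per library.

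Calls between mOC and pOC required a 2-fold difference, 10 or more counts summed over both, and a counting interval that did not contain 1. By this rule 13.1% of the 899 miRNAs were called, 49 higher (5.45%) and 69 lower (7.68%) in mOC, and 0 of the 4 arms. The median log2 ratio of the 4 arms was 0.07, against 0.04 over the 560 miRNAs with at least 10 counts. The arms are likewise on neither of the authors' deposited lists for pOC over mOC, which together hold 13.6% of the miRNAs. An interval that excludes 1, whatever the size of the ratio, was found for 55.7% of the 560 miRNAs, so a difference such as that of miR-132-3p was common in these libraries. Scaled by the authors' own normalising constants, the log2 ratio of miR-132-3p was -0.05 and its interval, 0.887 to 1.05, included 1, while the intervals of miR-212-3p (1.05 to 1.67) and miR-212-5p (1.02 to 2.95) then excluded 1. Those constants shift the median of all miRNAs by 0.27 on the log2 scale. The authors' own fold changes between these stages lay close to the ratios with the column totals instead. They put pOC first, so their signs are turned. On the log2 scale they gave 0.32 for miR-132-3p, -0.02 for miR-132-5p, -0.14 for miR-212-3p and -0.51 for miR-212-5p. The material is described as vesicles that the cultures released, so these need not be the levels in the cells. A lower level cannot be told apart from a smaller share of the cells that make the miRNA, or from a difference in the vesicles collected.

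**Figure D4:**
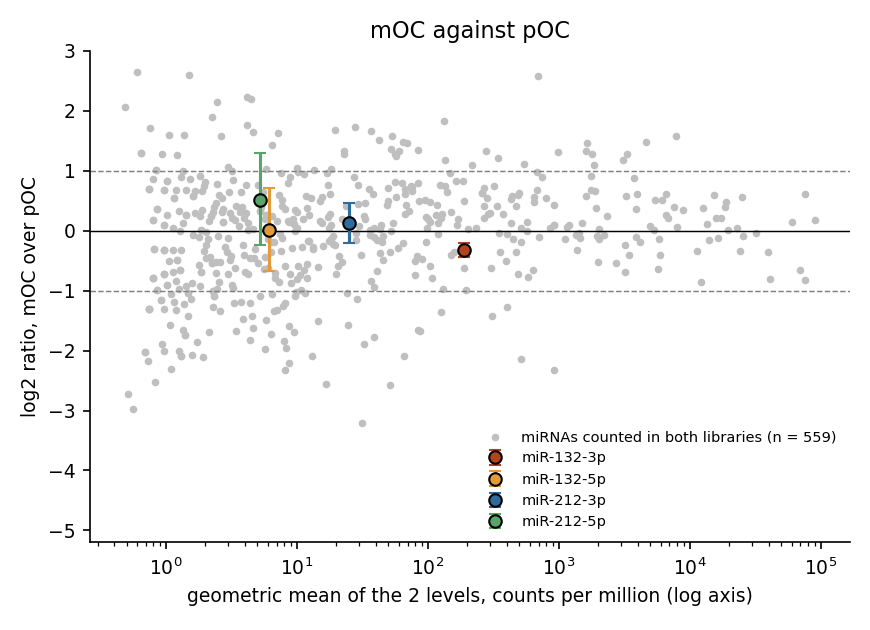
Log2 ratio of mOC over pOC against the geometric mean of both levels in CPM (log axis), for miRNAs with at least 10 counts that were counted in both libraries (grey) and the 4 arms (coloured, bars are exact 95% counting intervals); dashed lines mark a 2-fold difference. All 4 arms lie within 2-fold, miR-132-3p just below 0 at -0.33.

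Shares of counts within a library do not depend on how the libraries are scaled. miR-212 took a larger share of the cluster in mOC. Both arms of miR-212 together had 228 of the cluster's 1456 counts in mOC, 15.7% (13.8 to 17.6), against 154 of 1337 in pOC, 11.5% (9.86 to 13.4). The odds ratio of mOC over pOC was 1.43 (1.14 to 1.79). Among the 3p arms alone, which carry the shared seed, miR-212-3p made up 13.4% (11.7 to 15.4) in mOC and 10.2% (8.56 to 11.9) in pOC, with an odds ratio of 1.37 (1.07 to 1.76). Among the 5p arms the share of miR-212 was 50.6% (39.6 to 61.5) in mOC and 42.1% (29.1 to 55.9) in pOC, and the interval of the odds ratio, 0.681 to 2.92, included 1.

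A shift of this size was ordinary for neighbouring hairpins in these libraries. Of 57 pairs of adjacent hairpins within 10000 bases with at least 10 counts each, 27 (47.4%) had an odds ratio whose interval excluded 1. Mir212 with Mir132 was itself the middle of the 57 pairs by absolute log2 odds ratio, at 0.51, which is therefore also their median. The 57 include pairs with few counts, whose odds ratios have wide intervals. The seed-sharing 3p arms summed to 195.1 CPM in mOC and 235.7 CPM in pOC, so the summed level of the AACAGUC seed was 1.21-fold lower in mOC (1.12 to 1.30) with the column totals. With the authors' constants the ratio of mOC over pOC for this sum was 0.9995 (0.926 to 1.08).

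The share of 5p counts differed between the hairpins. These are counts of different sequences, and whether all were captured equally well was not tested. The 5p arm made up 19.3% (14.4 to 25.0) of the miR-212 counts in mOC and 15.6% (10.2 to 22.3) in pOC. In miR-132 it made up 3.50% (2.55 to 4.69) in mOC and 2.79% (1.93 to 3.90) in pOC. The odds of a 5p count were thus 6.58 times as high in miR-212 as in miR-132 in mOC (4.10 to 10.6) and 6.42 times as high in pOC (3.51 to 11.6).

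Between stages, the odds ratio of a 5p count in mOC over pOC was 1.26 (0.779 to 2.07) for miR-132 and 1.29 (0.729 to 2.34) for miR-212. Both intervals include 1, and with 24 to 44 counts per minor arm they are wide on either side of it. Of 112 hairpins with at least 10 counts for each arm, 58 (51.8%) had an interval that excluded 1. The 3p arm held most counts in both libraries in 43 of the 112 hairpins, Mir132 and Mir212 among them, and the 5p arm in 61. Over these 112 hairpins the arm with fewer counts had a median of 11.4% of the counts (quartiles 0.753 and 28.1%) with both libraries summed. The minimum of 10 counts for each arm leaves out hairpins with a rarer minor arm. The arm with fewer counts had 3.15% in miR-132 and 17.8% in miR-212, so miR-132 lay below that median and miR-212 above it.

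**Figure D5:**
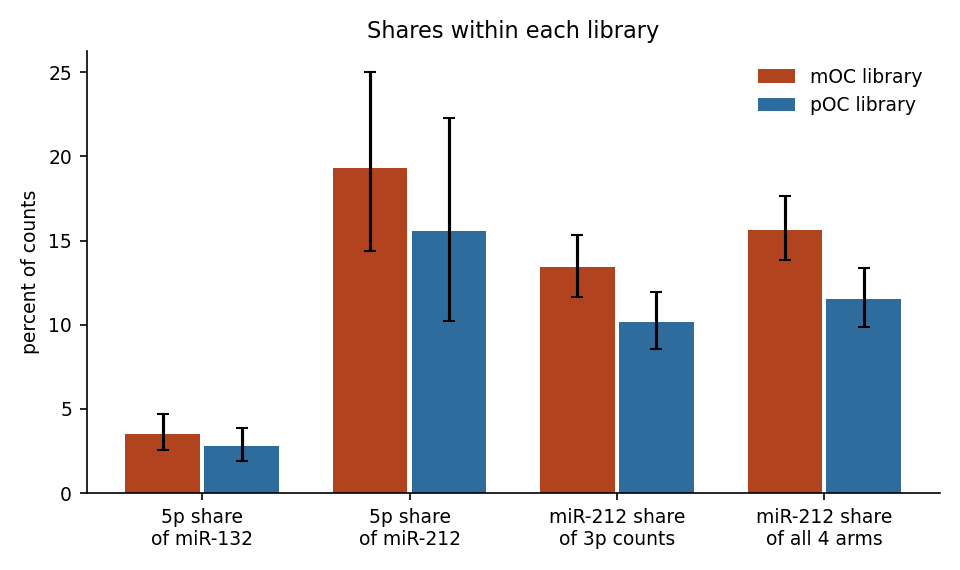
Percent of counts within the mOC and pOC libraries for 4 shares, with exact 95% Clopper-Pearson intervals: the 5p arm within miR-132 and within miR-212, and miR-212 within the 3p counts and within all 4 arms. The 5p share is about 3% in miR-132 and between 15.6 and 19.3% in miR-212, and miR-212 has a larger share of the cluster in mOC (15.7%) than in pOC (11.5%).

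The miRNAs nearest to each arm were sought over the authors' 2 log2 fold changes, mOC over R and pOC over R, among the 337 miRNAs with at least 50 counts in mOC or pOC. Nearness is the Euclidean distance over these 2 values, which share the denominator R. Nearest to miR-132-3p were miR-34b-5p (distance 0.78), miR-34c-5p (0.83) and miR-129-5p (0.90), followed by miR-99a-5p (1.14) and miR-96-5p (1.60). In the authors' deposited tables miR-34c-5p, a p53-induced miRNA, had log2 fold changes of 1.77 in mOC over R and 2.19 in pOC over R, while miR-132-3p had 2.38 in mOC over R and 2.75 in pOC over R.

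miR-212-3p had closer neighbours. They were miR-183-5p (distance 0.12), miR-96-5p (0.20), miR-155-5p (0.22), miR-30c-2-3p (0.24) and miR-182-5p (0.36), of which miR-183-5p, miR-96-5p and miR-182-5p come from 1 genomic cluster. The levels of these miRNAs are far apart: miR-183-5p was at 8233 CPM in mOC and 7871 CPM in pOC, while miR-212-3p was at 26.2 CPM in mOC and 23.9 CPM in pOC. miR-34b-5p was nearest to both miR-132-5p (0.20) and miR-212-5p (0.35), with miR-34c-5p second to each (0.28 and 0.63). miR-212-3p was itself the 5th nearest to miR-132-5p (0.76) and the 3rd nearest to miR-212-5p (0.72). With the minimum lowered to 10 counts over both libraries, 0 of the 5 neighbours of miR-132-3p, 2 of those of miR-132-5p, 1 of those of miR-212-3p and 1 of those of miR-212-5p were still among the nearest 5, so the neighbours depend on that minimum.

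miR-132 belongs to the miRNAs that inflammatory signals induce in macrophages, so 16 other miRNAs with that description were set beside it. Of these, 15 are listed in the tables. In the authors' deposited lists for mOC over R, 3 of the 15 were higher and none lower, where 5.78% of the 899 miRNAs are listed as higher and 6.23% as lower. In those for pOC over R, 1 was higher and none lower, where 6.56% are listed as higher and 4.12% as lower, so the count of 1 is at the background. All 4 arms of the cluster are listed as higher at each stage. The one on both lists was miR-155-5p, an NF-κB-induced miRNA of activated macrophages, at 2.41-fold in mOC over R and 2.42-fold in pOC over R in the authors' deposited tables. miR-9-5p, which lipopolysaccharide induces in monocytes, was 3.10-fold higher in mOC over R and 1.88-fold higher in pOC over R in the authors' deposited tables. The other was let-7e-5p, at 2.31-fold in mOC over R and 0.942-fold in pOC over R in the authors' deposited tables.

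Other members of that list did not stand with the cluster. miR-146a-5p, a feedback inhibitor of Toll-like receptor signalling and far more abundant at 57072 CPM in mOC and 100669 CPM in pOC, had a log2 fold change of -0.46 in mOC over R and 0.41 in pOC over R in the authors' deposited tables. miR-21a-5p stood at -0.34 in mOC over R and -0.48 in pOC over R in the authors' deposited tables. miR-147-3p had 8 counts in each library, too few to describe. The median of the 15 in the authors' deposited tables was 0.51 in mOC over R and 0.39 in pOC over R. Between mOC and pOC, 1 of the 15 was called, let-7e-5p, higher in mOC, where 5.45% of all miRNAs were.

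The myeloid and haematopoietic markers did not move as one over R. All 8 are listed, and they summed to 28630 CPM in mOC and 18461 CPM in pOC. In mOC over R the authors' deposited lists hold 2 of the 8 as higher (5.78% of all miRNAs) and 3 as lower (6.23%), and in pOC over R 1 as higher (6.56%) and 3 as lower (4.12%). The 3 listed as lower at both stages were miR-223-3p, miR-223-5p and miR-342-3p. In the authors' deposited tables miR-223-3p, a miRNA of the granulocyte and monocyte lineage, stood at 0.309-fold in mOC over R and 0.0897-fold in pOC over R. miR-342-3p stood at 0.180-fold in mOC over R and 0.114-fold in pOC over R, and miR-223-5p at 0.201-fold in mOC over R and 0.147-fold in pOC over R, in the authors' deposited tables. Those listed as higher were miR-155-5p at both stages and, in mOC over R, miR-142a-3p, at 4.65-fold in the authors' deposited tables. Between the stages 2 of the 8 were called higher in mOC (5.45% of all miRNAs) and none lower (7.68%): miR-142a-3p was 5.99-fold and miR-223-3p 3.55-fold higher in mOC. The part of these shifts in the values of the 4 arms was not tested.

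miR-132 and miR-212 are also made by neurons, and miR-132 by endothelial cells and pericytes, so miRNAs of those sources were read in the same libraries. Of 4 defining neural miRNAs, 2 are listed, miR-9-5p and miR-219a-5p, and they summed to 27.1 CPM in mOC and 14.4 CPM in pOC. miR-124-3p and miR-137-3p are not among the 899 listed names. A wider list of neural and neuronal activity-regulated miRNAs had 8 listed members. In mOC over R the authors' deposited lists hold 2 as higher (5.78% of all miRNAs), miR-9-5p and miR-129-5p, and none as lower (6.23%). In pOC over R they hold 2 as higher (6.56%), miR-129-5p and miR-134-5p, and 1 as lower (4.12%), miR-219a-5p. miR-129-5p was 9.61-fold higher in mOC over R and 7.67-fold higher in pOC over R in the authors' deposited tables. miR-9-5p is also on the inflammation list. Between mOC and pOC, 1 of the 8 was called higher in mOC (5.45%), miR-219a-5p, and 1 lower (7.68%), miR-134-5p, both on 32 or fewer counts a library. The 4 endothelial markers summed to 95.6 CPM in mOC and 152.8 CPM in pOC, and miR-126b-5p was at 0 in pOC. None of the 4 was on the authors' deposited lists against R. The 9 stromal and pericyte markers summed to 1240 CPM in mOC and 1400 CPM in pOC, with miR-199a-3p and miR-199b-3p, which have the same mature sequence and the same counts, counted once. Of them 5 were called lower in mOC (7.68% of all miRNAs) and none higher (5.45%), 1 was on the authors' deposited list of lower miRNAs in mOC over R (6.23%) and 1 on that of higher miRNAs in pOC over R (6.56%). The 5 called lower were miR-143-3p, miR-145a-5p, miR-145a-3p, miR-214-3p and miR-10b-5p. Markers of red cells and of liver or serum also differed between the libraries. The 5 erythroid markers summed to 251.6 CPM in mOC and 691.1 CPM in pOC, with miR-486a-5p and miR-486b-5p, copies with nearly the same counts, entered once. Of the 5, 4 were called lower in mOC, both copies among them, where 7.68% of all miRNAs were, and 3 are on the authors' deposited list of lower miRNAs in mOC over R (6.23%). The 4 liver and serum markers summed to 952.0 CPM in mOC and 2768 CPM in pOC, with 1 called lower in mOC (7.68%) and 1 on the authors' deposited list of lower miRNAs in mOC over R (6.23%). The part of these sources in the levels of the 4 arms was not tested.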

How the data were processed

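Mature miRNAs were counted in libraries of mOC, pOC and a library headed R. The sources used here do not give the counting method, the annotation release, the size selection or how multi-mapping reads were handled. The build GRCm38 and the tools FastQC, HISAT2 and StringTie, without roles, come from the submitters' processing notes. The deposited raw values are whole read counts for each miRNA, per the file headers. The deposited normalised values, a score here, equal each raw count over a library constant, times 1000000. The column totals are 1.37 (mOC) and 1.13 (pOC) times these constants. The authors' deposited tables also give a log2 fold change, the linear fold and a p-value without adjustment, with the library named first on top. Their lists hold exactly the miRNAs past 2-fold whose p-value is under 0.05.

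Columns were matched to samples by name (POC to pOC, OC to mOC). Of 36 per-sample columns 30 were not used, those of R among them. The mOC and pOC count columns repeated in the tables against R were identical. No group has replicates to test, and edgeR 4.0.16 (R 4.3.3) served only for alternative scalings. Counts were divided by column totals, and log2 ratios used a pseudocount of 1 (adjusted for library size). Ratio and share intervals are exact binomial (Clopper-Pearson), level intervals exact Poisson, and odds ratio intervals exact conditional (scipy 1.17.1), all at 95%. Where a count is 0, up to 3 counts are allowed for. The call rule was checked on simulated data. The odds ratio was checked against the scipy function on the counts of the arms and on another set of counts. Structures were predicted with RNAfold 2.7.2, and sequences are from RefSeq. The named miRNAs are the 4 arms, the 5 nearest to each by the authors' fold changes over R, miRNAs that share a seed, and 5 of the inflammation list. Many of the list members that were called were named as well, after their values were seen, but not all of them. The arms, lists and rules were chosen with earlier results of these data known. Alternatives were other scalings, pseudocounts, count minimums, intervals and measures of nearness.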

Additional observations from a re-analysis of the deposited data

How the results depend on the processing

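None of the 4 arms was called different between mOC and pOC under any of the 5 other scalings, 2 other pseudocounts and 2 other count minimums. With upper-quartile scaling the log2 ratio of miR-132-3p was -0.48, and with the authors' constants it was -0.054; over all 7 other settings it ran between these values and kept its sign. The ratio of the summed 4 arms, 0.843 with the column totals, was 1.02 with the authors' constants (0.944 to 1.10) and 0.755 to 0.847 with the other scalings. The log2 ratio of miR-132-5p ran from -0.14 to 0.28 and that of miR-212-3p from -0.03 to 0.40, so their sign depends on the scaling. The log2 ratio of miR-212-5p stayed between 0.34 and 0.75, higher in mOC. The number of miRNAs called higher in mOC was 80 with the authors' constants, against 49 with the column totals, and 62.02% of the called miRNAs were then higher, against 41.5%. The share was 32.3% with upper-quartile scaling. The number called lower was 35 with at least 50 counts in 1 library, against 69. The odds ratios of all shares kept their direction and their side of 1 with a log odds interval. The cluster of Mir212 and Mir132 remained the only one with every counted arm 2-fold higher over R at both stages when neighbours were sought within 1000 or 50000 bases. The distances of 1000 and 50000 bases were chosen after the values were seen. Leaving out a replicate could not be run. No paired analysis was possible because each group has 1 library. The 24 to 44 counts of the 5p arms limit what can be said of them.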
